A study of Mus musculus with 4 samples.

Results

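The Cyp2c genes encode cytochrome P450 enzymes of the endoplasmic reticulum, and they were followed here as 10 members found by gene symbol among the 46603 genes of a mouse liver count table: Cyp2c29, Cyp2c37, Cyp2c38, Cyp2c40, Cyp2c44, Cyp2c50, Cyp2c54, Cyp2c67, Cyp2c68 and Cyp2c70. All 10 were found, one of them (Cyp2c44) under its other symbol Cyp2c23, among 16 Cyp2c rows and 117 rows of Cyp genes in the table. Total liver RNA was sequenced from 4 male mice, 2 labelled Control (mice 1 and 2) and 2 labelled HuRhKO (mice 3 and 4). Every mouse carried floxed HuR alleles (HuRflox/flox, C57BL/6 J) and ate a Western diet with fructose and glucose in its water (WDSW) for 4 weeks. The HuRhKO mice had received AAV8-TBGP-Cre, a virus whose thyroxine-binding globulin promoter drives Cre in hepatocytes, and the Control mice AAV8-TBGP-GFP. Other liver cells of the HuRhKO mice are therefore not targeted, and the labels give no age.

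Liver Cyp2c enzymes oxidize drugs and steroids, and several of them turn arachidonic acid and linoleic acid into epoxides, which soluble epoxide hydrolase then converts to diols. They take their electrons from NADPH through cytochrome P450 reductase. Hepatocyte factors such as HNF4A and the constitutive androstane receptor CAR drive many of these genes, and growth hormone acting through STAT5B sets their differences between the sexes. Cyp2c70 has another role: it hydroxylates chenodeoxycholic acid on the way to the muricholic acids, the bile acids typical of mice.

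The targeted gene went against its label. Elavl1, which encodes HuR, had 28.3 and 25.9 CPM (counts scaled to the library size and its TMM factor) in Control mice 1 and 2, and 37.7 and 34.4 CPM in HuRhKO mice 3 and 4. Both mice labelled HuRhKO thus had more Elavl1 RNA than both controls, and the edgeR quasi-likelihood test gave a log2 fold change of 0.41 (SE 0.14, unadjusted p = 0.016, adjusted p = 0.545). Gene counts cannot show whether the floxed exon was read. Every direction below is that of the libraries labelled HuRhKO against those labelled Control.

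The libraries held between 13032095 and 19715577 counts on genes, the largest that of mouse 4. Of 13001 genes tested, 3 (0.0231%) had an adjusted p-value under 0.05, and 276 (2.12%) passed the threshold the study used, a fold change of at least 1.8 with an unadjusted p-value under 0.05. The 13 hepatocyte markers fixed for the check were all detected and together made up between 91976 and 104640 CPM, and none of them had an unadjusted p-value under 0.05. Their median log2 fold change was 0.03. Control mouse 1 stood apart in the cholangiocyte genes Krt19 and Muc1, with 12.2 and 10.7 CPM against at most 1.8 and 1.33 CPM in the other 3 mice. These genes were picked from 9 cholangiocyte markers after their values were seen. All 9 together gave 75.3 and 43.9 CPM in Control mice 1 and 2, and 53.3 and 63.5 CPM in HuRhKO mice 3 and 4. The list as a whole thus set Control mouse 1 apart much less. In bulk liver RNA, fewer cells of a type and less RNA per cell cannot be told apart.

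Where the members lie and how alike they are bears on every value below. Of the 10 members, 9 lie in a cluster on chromosome 19 of GRCm38 between 39269405 (the start of Cyp2c29) and 40187333 (the end of Cyp2c70), and Cyp2c44 lies apart from it on the same chromosome, at 44005022 to 44029208. The coding sequences fall into 3 sets of near copies. Cyp2c37, Cyp2c50 and Cyp2c54 were between 95.1% and 96.1% identical, Cyp2c67 and Cyp2c68 were 97.2% identical with Cyp2c40 at 92.2% and 92.6% to them, and Cyp2c29 and Cyp2c38 were 89.1% identical. Cyp2c70 reached at most 69% identity with another member and Cyp2c44 at most 64.9%, so this pair stands alone.

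Identity over a whole gene does not say whether a short read can be placed, so windows of 100 coding bases were matched to all annotated transcripts. Of the windows of Cyp2c40, 50.6% occurred letter for letter in another gene, as did 27.2% of those of Cyp2c67 and 22.9% of those of Cyp2c68. The shares were 11.6% for Cyp2c50, 9.34% for Cyp2c54 and 5.76% for Cyp2c37, and 0 for Cyp2c29, Cyp2c38, Cyp2c44 and Cyp2c70. Counts of Cyp2c40, Cyp2c67 and Cyp2c68 are therefore uncertain as single genes, since the handling of reads that match several genes is not given in the sources used here. Cyp2c29 overlaps the pseudogene Cyp2c53-ps on the same strand, which had at most 11 counts in a mouse.

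**Figure D1:**
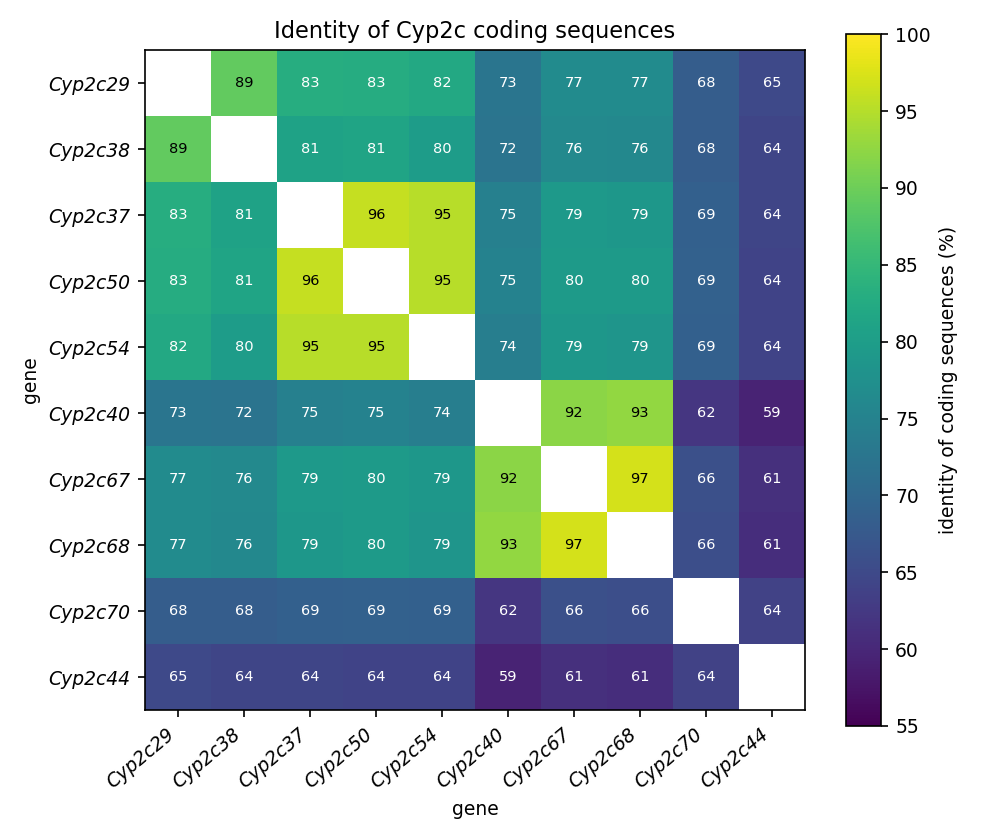
Identity of the coding sequences of the 10 members, in percent of aligned columns, with both axes listing the genes and the diagonal left blank. The 3 sets of near copies stand out as bright blocks, with 95.1% to 96.1% identity for Cyp2c37, Cyp2c50 and Cyp2c54, while the rows of Cyp2c70 and Cyp2c44 stay at or below 69%.

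The promoters show the same kinship, and a stretch of each is printed because it holds a motif found in 6 of the 8 promoters searched. The 250 bases before the RefSeq start site (build GRCm38.p6) were available for 8 members, all but Cyp2c44 and Cyp2c54. Each line gives 57 bases, 5′ to 3′ on the strand of the gene, with the letters that match CAAAGTC in capitals. These letters are the core of the HNF4A motif CAAAGTCCA, and the core was chosen after the promoters had been looked at.
Cyp2c29, chr19:39286951-39287007, plus strand: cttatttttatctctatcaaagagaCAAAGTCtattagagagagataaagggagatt
Cyp2c38, chr19:39463155-39463211, minus strand: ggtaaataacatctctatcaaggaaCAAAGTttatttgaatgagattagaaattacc
Cyp2c37, chr19:39992283-39992339, plus strand: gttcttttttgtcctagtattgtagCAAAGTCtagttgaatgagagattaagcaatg
Cyp2c50, chr19:40089540-40089596, plus strand: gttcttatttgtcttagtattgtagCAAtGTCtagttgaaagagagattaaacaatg
Cyp2c67, chr19:39649136-39649192, minus strand: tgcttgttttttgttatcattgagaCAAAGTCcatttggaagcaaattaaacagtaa
Cyp2c68, chr19:39741147-39741203, minus strand: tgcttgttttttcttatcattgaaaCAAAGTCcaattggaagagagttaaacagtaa
Cyp2c40, chr19:39812828-39812884, minus strand: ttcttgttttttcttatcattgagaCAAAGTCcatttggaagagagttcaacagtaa
Cyp2c70, chr19:40187319-40187375, minus strand: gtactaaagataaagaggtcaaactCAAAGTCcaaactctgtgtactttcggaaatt

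The full motif CAAAGTCCA stood in the promoters of Cyp2c40, Cyp2c67, Cyp2c68 and Cyp2c70, against 0.384% of 32851 mouse promoters of the same length searched on both strands. The shorter CAAAGTC, which every full motif contains, also stood in those of Cyp2c29 and Cyp2c37, against 3.84% of all promoters. Cyp2c38 differed from the core by C7T and Cyp2c50 by A4T at the places shown, counted from 1 at the first base of the core. Neither TTCNNNGAA, the motif of STAT5, nor TTGCGCAA, the motif of C/EBP factors, nor the palindromic motif of HNF1 was found in the 250 bases of these 8 promoters. These letters occur in 7.02%, 0.164% and 0.00913% of all promoters. Near copies share promoter letters by descent, so the matches are not independent of each other, and a match or its absence is a description of these letters alone.

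Levels of different genes are compared as CPM per kilobase of transcript. In the controls Cyp2c29 was the most abundant at 621 ± 8.55 CPM per kilobase (SD, n = 2 here and below), followed by Cyp2c50 at 341 ± 4.53, Cyp2c70 at 258 ± 23.8, Cyp2c37 at 191 ± 27.8 and Cyp2c44 at 168 ± 41.5. Cyp2c54 stood at 103 ± 3.99, Cyp2c67 at 85.8 ± 9.81, Cyp2c68 at 57.8 ± 1.09, Cyp2c38 at 10.5 ± 2.01 and Cyp2c40 at 1.10 ± 0.199. The neighbours Cyp2c37 and Cyp2c44 overlapped between the 2 controls, and the other neighbours in this order did not. Among the HuRhKO mice the order differed only in that Cyp2c44 stood above Cyp2c37 and Cyp2c67 above Cyp2c54. In both of those pairs the values of the HuRhKO mice overlapped.

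**Figure D2:**
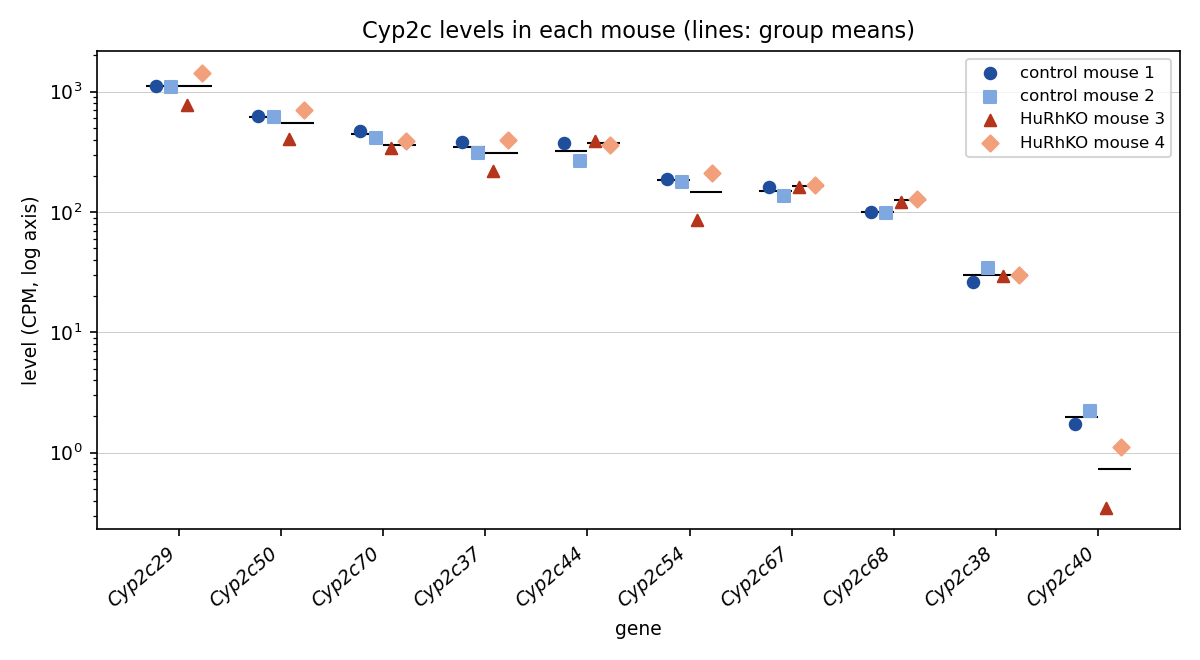
Level of each member in each of the 4 mice, in CPM on a log axis, ordered by the mean of the controls, with short lines at the group means. Levels run from 1444 CPM (Cyp2c29 in mouse 4) down to 0.348 CPM (Cyp2c40 in mouse 3), and the triangles of mouse 3 lie lowest for Cyp2c29, Cyp2c50, Cyp2c37 and Cyp2c54.

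As a whole the family did not separate the groups. The summed level of the 10 members was 3453 and 3150 CPM in Control mice 1 and 2, and 2527 and 3824 CPM in HuRhKO mice 3 and 4, so mouse 3 was the lowest of the 4 and mouse 4 the highest. The mean was 3301 ± 215 CPM in the controls and 3175 ± 917 CPM in the HuRhKO mice. On the log2 scale the difference was -0.09 (exact two-sided permutation test, p = 1.00, where 2 against 2 mice cannot give less than 0.333). Cyp2c members took between 0.263% and 0.366% of all counts of a library, and between 12.4% and 14.5% of the counts on Cyp genes.

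By the fit over all genes, 0 of the 10 members had an adjusted p-value under 0.05 with edgeR's quasi-likelihood test, where 0.0231% of all genes did. At an unadjusted p-value under 0.05 there were 2, Cyp2c40 (lower) and Cyp2c68 (higher), against 3.39% of all genes lower and 4.04% higher. DESeq2's Wald test, edgeR's exact test and limma-voom also left 0 members with an adjusted p-value under 0.05. Only Cyp2c40 passed the threshold of the study, on the lower side, where 0.915% of all genes did, and 0 members passed it on the higher side, where 1.21% did. Both HuRhKO mice lay below both controls for 2 members (Cyp2c40 and Cyp2c70), where 18.8% of all genes did so, and above them for 2 (Cyp2c67 and Cyp2c68), where 19.3% did. These shares are near those of all genes. The median log2 fold change of the members was -0.09, with 4 above zero and 6 below, and that of all genes tested was 0.00195. It was 0.16 without mouse 3 and -0.44 without mouse 4, and 0.00503 with near copies summed. The p-values here rest on the spread between 2 mice a group, which the fit moderates with the spread over all genes tested.

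**Figure D3:**
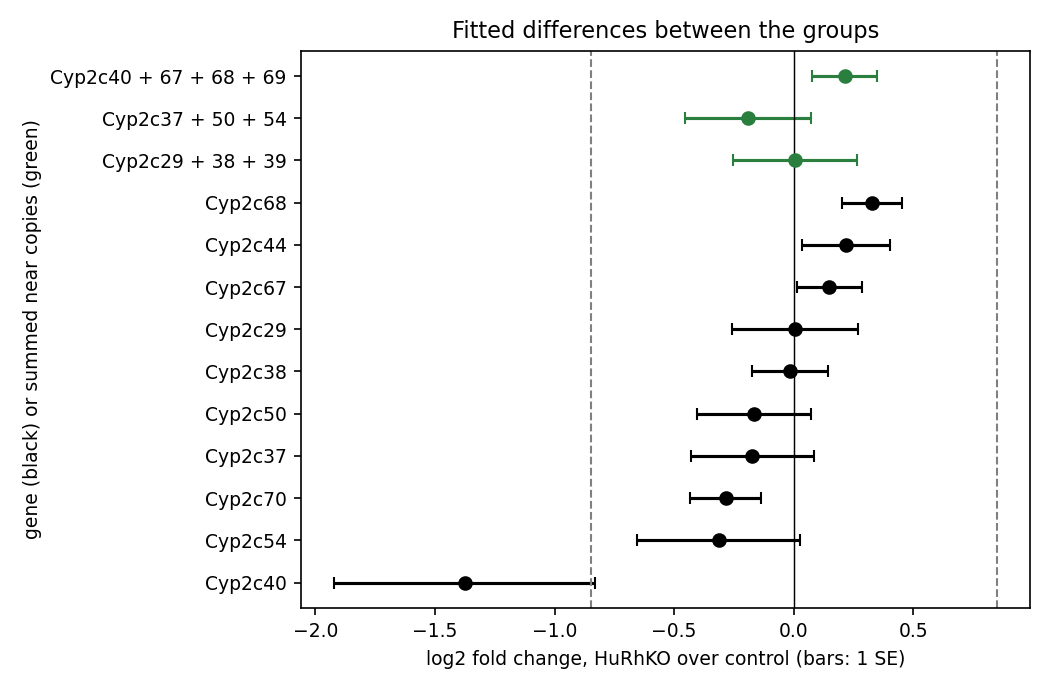
Fitted log2 fold change of HuRhKO over Control for each member (black) and for the 3 sums of near copies (green), with bars of 1 SE and dashed lines at the 1.8-fold threshold. Cyp2c40 at -1.38 lies beyond the lower line, the other members lie between -0.31 and 0.33, and the sum that contains Cyp2c40 lies at 0.21.

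Cyp2c70, the enzyme of muricholic acid synthesis, was lower in the HuRhKO mice by less than the threshold asks. It had 471 and 413 CPM in Control mice 1 and 2 and 340 and 386 CPM in HuRhKO mice 3 and 4. Both HuRhKO mice lay below both controls. The log2 fold change was -0.28 (SE 0.15), a level 0.821 times that of the controls, with an unadjusted p of 0.0898 and an adjusted p of 0.704 by edgeR. With no coding window shared with another gene, this value does not depend on how reads were split. The direction of Cyp2c70 held in each of 10 other analyses, between -0.30 and -0.28, and with any 1 mouse removed, between -0.38 and -0.20.

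Cyp2c40 is known for oxidizing arachidonic acid within its chain, and it was the scarcest member. It had 23 and 30 reads in Control mice 1 and 2 and 5 and 21 in HuRhKO mice 3 and 4, or 1.73, 2.24, 0.348 and 1.11 CPM. Both HuRhKO mice were below both controls. The exact 95% Poisson interval for the 21 reads of mouse 4 (13 to 32.1) overlaps that of Control mouse 1 (14.6 to 34.5). These intervals are in reads, not scaled to library size, and mouse 4 had the largest library. Their overlap therefore does not compare levels. The interval for the 5 reads of mouse 3 ran from 1.62 to 11.7 and covers counting error only. By edgeR the log2 fold change was -1.38 (SE 0.55, unadjusted p = 0.0353, adjusted p = 0.623 by edgeR), a level 2.59-fold lower.

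This call rested on few reads. Without mouse 3 the log2 fold change of Cyp2c40 was -0.84 with an unadjusted edgeR p of 0.18, and without Control mouse 2 it was -1.18 with an unadjusted p of 0.131, so the threshold was no longer passed in either case. Without mouse 4 it was -2.48. DESeq2's Wald test gave an unadjusted p of 0.0583, and a minimum of 10 reads in every library removed the gene. Cyp2c69, the near copy not among the members and too scarce to be tested, had 8 and 11 reads in the controls and 2 and 5 reads in mice 3 and 4.

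The near copies of Cyp2c40 that carried most of the reads did not share its direction. Cyp2c67 had 161 and 137 CPM in Control mice 1 and 2 and 161 and 169 CPM in HuRhKO mice 3 and 4. Both HuRhKO values were above both controls (mouse 3 only just above Control mouse 1), and the log2 fold change was 0.15 (SE 0.14, adjusted p = 0.847 by edgeR).

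Cyp2c68 had 101 and 98.3 CPM in Control mice 1 and 2 and 121 and 129 CPM in mice 3 and 4. The controls lay close together, and both HuRhKO mice lay above them. The log2 fold change was 0.33 (SE 0.12), a level 1.25-fold higher and short of 1.8-fold, with an unadjusted edgeR p of 0.03 and an adjusted p of 0.6. Its direction held with any 1 mouse removed, between 0.28 and 0.36, with unadjusted p-values between 0.0788 and 0.149.

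Since reads may pass between Cyp2c40, Cyp2c67, Cyp2c68 and Cyp2c69, their counts were also summed before the fit. The sums were 264 and 238 CPM in the controls and 282 and 299 CPM in the HuRhKO mice. The log2 fold change of the sum was 0.21 (SE 0.13, adjusted p = 0.766 by edgeR). Cyp2c40 gave a mean of 1.98 of the 251 CPM of this sum in the controls. The sum therefore follows Cyp2c67 and Cyp2c68 and cannot test the direction of Cyp2c40.

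Cyp2c29, Cyp2c37, Cyp2c50 and Cyp2c54 differed mainly between the HuRhKO mice themselves. Cyp2c29, an epoxygenase of arachidonic acid that CAR activators induce, had 1118 and 1096 CPM in Control mice 1 and 2, 778 CPM in mouse 3 and 1444 CPM in mouse 4. The controls lay close together, and the HuRhKO mice lay on either side of them. Its log2 fold change was 0.01 (SE 0.26, adjusted p = 0.997 by edgeR), and the sign turned with the choice of scaling.

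Cyp2c50, which makes epoxides of arachidonic and linoleic acid, had 624 and 613 CPM in the controls, 403 CPM in mouse 3 and 699 CPM in mouse 4. Cyp2c37, its neighbour and near copy, had 384 and 312 CPM in the controls, 221 CPM in mouse 3 and 396 CPM in mouse 4. Their log2 fold changes were -0.17 (SE 0.24) and -0.17 (SE 0.26), with adjusted p-values by edgeR of 0.906 and 0.909. In both genes mouse 3 was the lowest and mouse 4 the highest.

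Cyp2c54, another epoxygenase, showed the same order most strongly, with 189 and 179 CPM in the controls, 85.4 CPM in mouse 3 and 210 CPM in mouse 4. Its log2 fold change was -0.31 (SE 0.34, adjusted p = 0.871 by edgeR). Without mouse 4 this was -1.11 (unadjusted p = 0.000674, adjusted p = 0.315, and past the 1.8-fold threshold), and without mouse 3 it was 0.18. The direction of Cyp2c54 thus depended on which HuRhKO mouse was kept.

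Mouse 4 exceeded mouse 3 by 1.86 times for Cyp2c29, 1.79 times for Cyp2c37, 1.74 times for Cyp2c50 and 2.46 times for Cyp2c54. Among the 2687 genes with a mean of at least 50 CPM the median of this ratio was 1.05, and 2.68% of them reached 1.5. Of the 8 members at that level, 4 did. Ratios as high as that of Cyp2c54 occurred in 0.558% of these genes, and ratios as high as those of the other 3 in 0.819% to 1.23%. The 4 members stand in 2 sets of near copies, and Cyp2c37, Cyp2c50 and Cyp2c54 may share reads, whereas Cyp2c29 shares no coding window with them. Mouse 4 also had the largest library, and the part of depth in this split was not tested.

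The sum of Cyp2c37, Cyp2c50 and Cyp2c54, which does not depend on how their reads were split, was 1197 and 1104 CPM in the controls, 709 CPM in mouse 3 and 1306 CPM in mouse 4. Its log2 fold change was -0.19 (SE 0.26, adjusted p = 0.904 by edgeR). The spread between mice 3 and 4 thus stayed in the sum. Summing Cyp2c29 with its near copies Cyp2c38 and Cyp2c39 likewise gave 0.01 (SE 0.26).

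**Figure D4:**
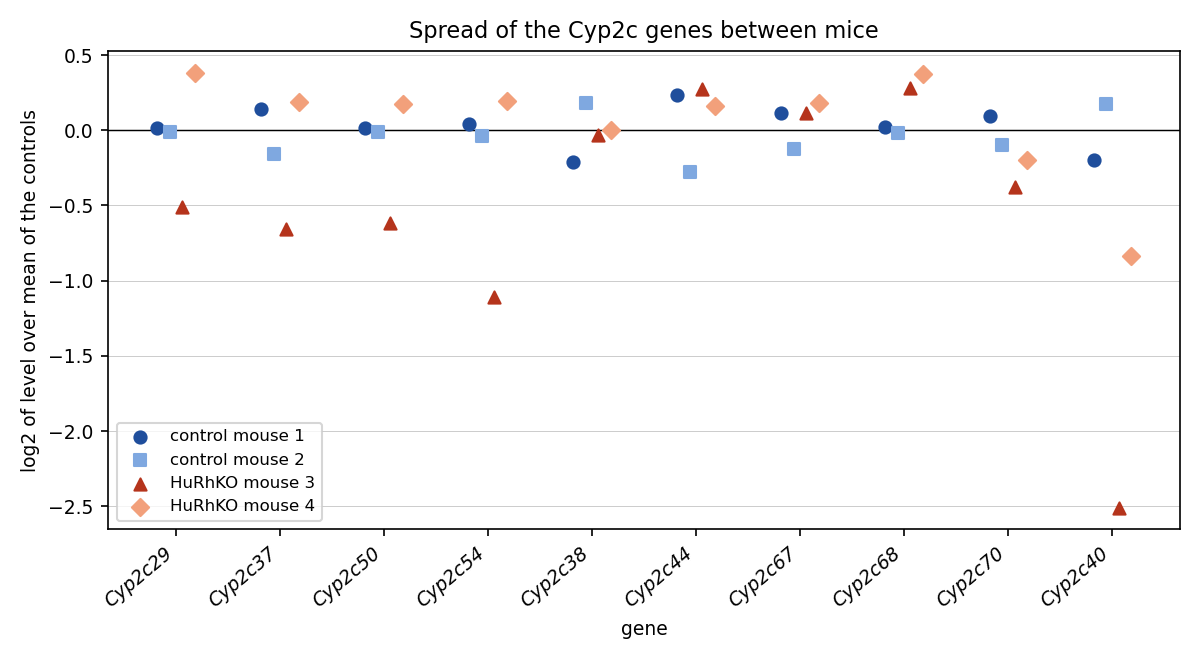
Level of each member in each mouse as the log2 ratio to the mean of the controls, so that zero is the mean of Control mice 1 and 2. For Cyp2c29, Cyp2c37, Cyp2c50 and Cyp2c54 mouse 3 lies below and mouse 4 above the controls, for Cyp2c70 and Cyp2c40 both HuRhKO mice lie below, and for Cyp2c67 and Cyp2c68 both lie above.

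Cyp2c38 and Cyp2c44 showed no such split. Cyp2c38, an epoxygenase close to Cyp2c29 and Cyp2c39, had 26.1 and 34.2 CPM in the controls and 29.5 and 30.2 CPM in mice 3 and 4. Both HuRhKO mice lay between the controls, and the log2 fold change was -0.02 (SE 0.16, adjusted p = 0.99 by edgeR).

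Cyp2c44, an epoxygenase of liver and kidney, had 377 and 265 CPM in the controls and 388 and 359 CPM in mice 3 and 4. Control mouse 2 was the lowest of the 4, and Control mouse 1 lay between the HuRhKO mice. The log2 fold change of Cyp2c44 was 0.22 (SE 0.18, adjusted p = 0.837 by edgeR), and it was -0.01 without Control mouse 2. Mouse 4 was not above mouse 3 here, at a ratio of 0.925.

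These differences changed the make-up of the family most in mouse 3. Cyp2c29, Cyp2c37, Cyp2c50 and Cyp2c54 together gave 67% and 69.9% of the Cyp2c counts in the controls, 58.8% in mouse 3 and 71.9% in mouse 4. The share of Cyp2c44 was 10.9% and 8.41% in the controls, 15.4% in mouse 3 and 9.39% in mouse 4. Cyp2c70 made up 13.6% and 13.1% in the controls, 13.5% in mouse 3 and 10.1% in mouse 4. Its lower CPM therefore went with a lower share of the family in mouse 4 alone.

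**Figure D5:**
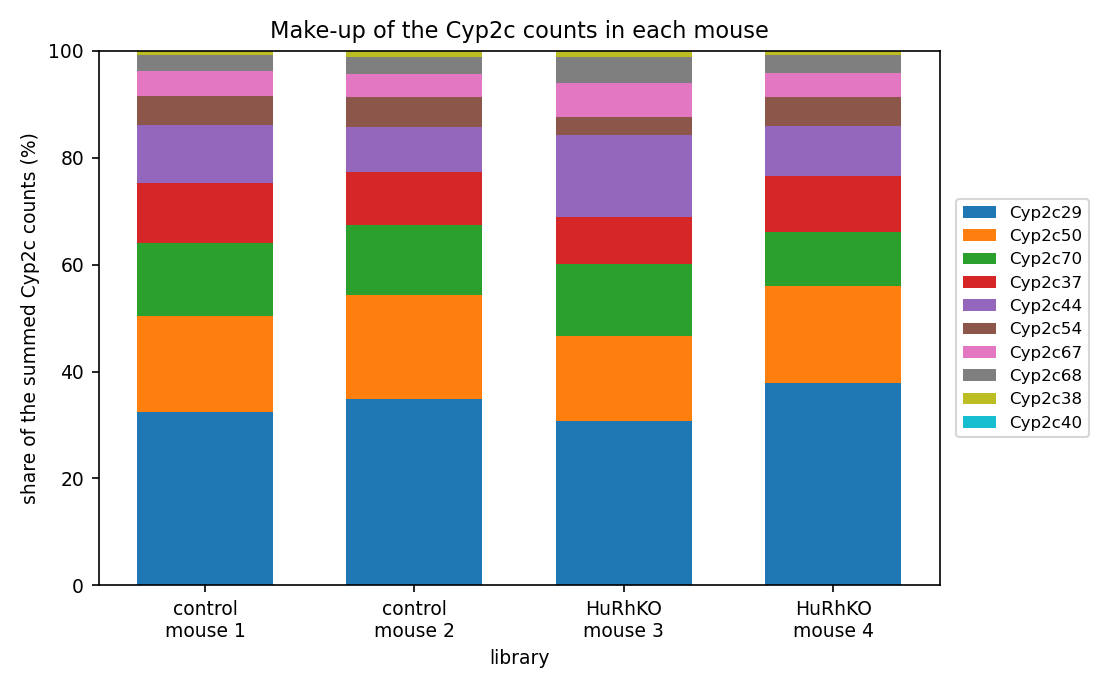
Share of each member in the summed counts of the 10 Cyp2c genes, in percent, for each of the 4 libraries. Cyp2c29 is the largest part in every mouse, at 30.8% to 37.8%, Cyp2c44 is widest in mouse 3 at 15.4%, and Cyp2c40 at no more than 0.071% is too thin to be seen.

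The other 5 protein-coding Cyp2c genes were scarce, with at most 36 reads in a mouse. Cyp2c39, which can oxidize retinoic acid, had 11 and 25 reads in the controls and 7 and 36 reads in mice 3 and 4. These were 0.827 and 1.86 CPM in the controls and 0.488 and 1.91 CPM in mice 3 and 4. Mouse 3 was the lowest, and mouse 4 lay barely above Control mouse 2. The log2 fold change of Cyp2c39 was -0.12 (SE 0.66, adjusted p = 0.981 by edgeR). Cyp2c55 had 13 and 20 reads in the controls and 34 and 29 reads in mice 3 and 4, with a log2 fold change of 0.64 (SE 0.44, adjusted p = 0.779 by edgeR). Cyp2c65, a gene of the intestine, had 9 reads in Control mouse 1, the mouse with high Krt19 and Muc1, and 0, 1 and 1 reads in mice 2, 3 and 4. The summed kidney and intestine epithelial genes, Cyp2c65 among them, were lowest in Control mouse 1. They gave 148 CPM there, against 233, 190 and 262 CPM in mice 2, 3 and 4. The part of other epithelial cells in the Cyp2c65 reads was not tested. Cyp2c66 had 1 read in mouse 4 and 0 reads in the other mice. A count of 0 is taken here to allow up to 3 reads, a one-sided limit unlike the two-sided intervals given for Cyp2c40, or at most 0.23 CPM.

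Among the enzymes that work with the Cyp2c proteins, no change was called. The 7 redox partners and epoxide hydrolases had a median log2 fold change of 0.02, and 0 of them had an unadjusted p-value under 0.05 by edgeR, where 7.43% of all genes did. Por, the reductase that feeds electrons to P450 enzymes, had 547 and 668 CPM in the controls and 501 and 731 CPM in mice 3 and 4, with mouse 3 lowest and mouse 4 highest as in Cyp2c29. Ephx2, the soluble epoxide hydrolase, had 909 and 992 CPM in the controls and 841 and 905 CPM in mice 3 and 4, a log2 fold change of -0.12 (SE 0.15). Ephx1, the microsomal one, had a log2 fold change of 0.16 (SE 0.15).

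Of the 15 other P450 genes of arachidonic acid, 11 were tested, with a median log2 fold change of -0.01. Of these, 1 passed the threshold of the study on the higher side, where 1.21% of all genes did. Cyp4a14, a fatty acid hydroxylase under the control of PPARA, had 158 and 71.1 CPM in the controls and 254 and 321 CPM in mice 3 and 4. Both HuRhKO mice were above both controls, and the log2 fold change was 1.33 (SE 0.32, unadjusted p = 0.0032, adjusted p = 0.352 by edgeR).

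Cyp2c70 acts downstream of the enzymes that start bile acid synthesis, and none of those passed the threshold of the study either. Of the 17 genes of bile acid synthesis that were tested, 13 had a log2 fold change below zero and 4 above, with a median of -0.13 that ran from -0.25 to -0.04 with a mouse left out. Both HuRhKO mice lay below both controls for 7 of the 17, where 18.8% of all genes did so, and above them for 3, where 19.3% did. At an unadjusted p-value under 0.05 there was 1 in each direction, Cyp7a1 (lower) and Acot8, a peroxisomal thioesterase, at 0.53 (unadjusted p = 0.0109, adjusted p = 0.501 by edgeR). Cyp7a1, the rate-limiting enzyme of the classical pathway, had 101 and 132 CPM in the controls and 65.4 and 88.9 CPM in mice 3 and 4. Both HuRhKO mice were below both controls, with a log2 fold change of -0.59 (SE 0.19, unadjusted p = 0.0142, adjusted p = 0.53 by edgeR).

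Cyp27a1 and Cyp7b1, the enzymes of the alternative pathway that leads to chenodeoxycholic acid, had log2 fold changes of -0.22 (SE 0.14) and -0.27 (SE 0.14). Baat, which conjugates bile acids, had -0.16 (SE 0.13). Both HuRhKO mice lay below both controls for these 3 genes, as for Cyp2c70, and above them for Acot8, Amacr at 0.13 and Hsd3b7 at 0.17. Cyp8b1, which steers synthesis to cholic acid, overlapped between the groups at -0.19 (SE 0.32) and turned to 0.31 without Control mouse 2. Of 12 bile acid transporters tested, Slco1a4, an uptake carrier, passed the threshold on the higher side, where 1.21% of all genes did, with 17.3 and 11.6 CPM in the controls and 24.4 and 28.5 CPM in mice 3 and 4, a log2 fold change of 0.88 (SE 0.20, unadjusted p = 0.00246, adjusted p = 0.312 by edgeR). It fell short of 1.8-fold without Control mouse 2, at 0.62, and without mouse 4, at 0.76.

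The transcription factors that act on Cyp2c genes showed no called change by adjusted p-value. Of 21 tested, 14 had a log2 fold change below zero, with a median of -0.06. Nr1i3, which encodes CAR, had 329 and 441 CPM in the controls and 316 and 413 CPM in mice 3 and 4, a log2 fold change of -0.08 (SE 0.19). Hnf4a had 612 and 392 CPM in the controls and 523 and 441 CPM in mice 3 and 4, a log2 fold change of -0.06 (SE 0.22). In both genes the groups overlapped.

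Nr1i2, which encodes the pregnane X receptor, had a log2 fold change of 0.26 (SE 0.15), Nr1h4, the bile acid receptor FXR, of -0.12 (SE 0.16), and Nr0b2, its target SHP, of 0.09 (SE 0.27). Stat5b stood at -0.02 (SE 0.13). Bcl6, a repressor that opposes STAT5 at female-biased genes, passed the threshold of the study at -1.71 (SE 0.71, unadjusted p = 0.0418 by edgeR), but it had 9.85 and 68.6 CPM in Control mice 1 and 2 and 8.50 and 15.3 CPM in mice 3 and 4. Control mouse 2 stood apart from the other 3 mice, and without it the log2 fold change was 0.29. The unadjusted p of Bcl6 was 0.194 without mouse 3 and 0.0708 without mouse 4, so its call was lost there too, as it was by DESeq2 (unadjusted p = 0.164), limma-voom (unadjusted p = 0.181) and edgeR's robust test (unadjusted p = 0.302).

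Lists of genes with which Cyp2c genes share regulation were counted in the same way, beside the 1.21% of all genes that passed the threshold of the study on the higher side and the 0.915% on the lower. Of 22 target genes of CAR and PXR, 11 were above zero and 11 below, and 3 passed the threshold, Slco1a4, the glutathione transferase Gstm3 at 0.92 (SE 0.33) and the sulfotransferase Sult5a1 at -1.10 (SE 0.29). Of 25 pericentral hepatocyte genes, the ammonium carrier Rhbg at 1.34 (SE 0.49) passed it, and of 21 periportal genes Aldh1b1, an aldehyde dehydrogenase, at 0.94 (SE 0.17). The median log2 fold changes of the pericentral and periportal lists were 0.09 and 0.04. By edgeR the smallest adjusted p-values were 0.312 among the CAR and PXR targets, 0.426 among the pericentral genes and 0.139 among the periportal genes.

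Each of these 5 calls ended when 1 mouse was left out. Rhbg overlapped between the groups, with 5.11 and 13.3 CPM in the controls and 13.2 and 33.1 CPM in mice 3 and 4, and it came to 0.51 (unadjusted edgeR p of 0.326) without mouse 4 and 0.79 (unadjusted edgeR p of 0.0667) without Control mouse 1. Gstm3 came to 0.24 (unadjusted edgeR p of 0.354) without mouse 3 and 0.69 (unadjusted edgeR p of 0.0673) without Control mouse 1. Sult5a1 fell short of 1.8-fold at -0.78 without Control mouse 2 and -0.83 without mouse 3, Aldh1b1 at 0.79 without Control mouse 1 and 0.76 without mouse 4, and Slco1a4 at 0.62 without Control mouse 2 and 0.76 without mouse 4. Rhbg also lost its call by DESeq2 (unadjusted p = 0.137) and by edgeR's robust test (unadjusted p = 0.187), and Gstm3 by the robust test of edgeR (unadjusted p = 0.108) and by limma-voom, at 0.81.

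Of 14 female-biased liver genes tested out of 26, 5 passed the threshold of the study upward, where 1.21% of all genes did, and 0 downward. They were Cyp2a4 at 4.81 (SE 0.57), Cyp2b13 at 2.40 (SE 0.37), Cyp2b9 at 1.52 (SE 0.26), Atp6v0d2 at 1.43 (SE 0.56) and Cyp4a14. None of these 5 had an adjusted p-value under 0.05 by edgeR, and the smallest was 0.0636 for Cyp2a4. Atp6v0d2 lost its call without mouse 4, at 0.46 (unadjusted edgeR p of 0.502), and without Control mouse 1, at 1.06 (unadjusted edgeR p of 0.1), and by limma-voom (unadjusted p = 0.0662). The filter on low counts left out 12 of the 26, and Cyp2a4 and Cyp2b13 did not reach 10 reads in every library, so nothing is read from this count. Of 25 male-biased genes tested, 3 passed downward, where 0.915% of all genes did, namely Ugt2b38 at -1.21 (SE 0.26), the complement gene C6 at -0.99 (SE 0.20) and Bcl6, and Mup21 passed upward at 0.86 (SE 0.23). The smallest adjusted p-value by edgeR among the male-biased genes was 0.200, that of C6. Without Control mouse 1 and without mouse 4, C6 was at -0.71 and -0.83 and short of 1.8-fold, and Mup21 was so at 0.63 without Control mouse 2 and at 0.51 without mouse 3, while Bcl6 turned to 0.29 without Control mouse 2 and lost its call without mouse 3 and without mouse 4. The median of the male-biased genes was -0.44, between -0.40 and -0.30 with a mouse left out. That of the female-biased genes was 0.64, and it ran from 0.36 without mouse 4 to 1.06 without Control mouse 2. It was 0.37 without the filter on low counts and 0.52 with 10 counts in every library. The filter bears on this median as on the count, so nothing is read from it either. The 10 Cyp2c members, at a median of -0.09, were not on either list.

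Acute phase genes, which accompany inflammation of the liver, were mixed. Of 24 tested, 4 passed the threshold upward, where 1.21% of all genes did, namely Lcn2 at 2.13 (SE 0.34), Saa3 at 1.18 (SE 0.29), Saa1 at 1.05 (SE 0.19) and Saa2 at 0.97 (SE 0.14). Hpx, which encodes the heme carrier hemopexin, passed it downward, where 0.915% did, at -1.41 (SE 0.17). The smallest adjusted p-value by edgeR among the acute phase genes was 0.0636, that of Hpx. Saa1 fell short of 1.8-fold without Control mouse 2, at 0.79, and Saa3 without mouse 3, at 0.81. Summed levels of the acute phase list were 21652 and 18692 CPM in the controls and 19103 and 18639 CPM in the HuRhKO mice, and their part in the Cyp2c values was not tested.

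Markers of other liver cells were low beside those of hepatocytes, and the filter kept 11 of 12 macrophage, 6 of 9 cholangiocyte, 8 of 8 endothelial, 10 of 10 stellate cell and 4 of 9 lymphocyte markers. Summed levels in the controls and the HuRhKO mice were 191 to 205 and 212 to 234 CPM for the macrophage markers, 43.9 to 75.3 and 53.3 to 63.5 CPM for the cholangiocyte markers, and 214 to 244 and 242 to 277 CPM for the endothelial markers. They were 343 to 351 and 361 to 428 CPM for the stellate cell markers and 3.98 to 8.28 and 7.25 to 7.32 CPM for the lymphocyte markers. Of all these, only the macrophage gene Trem2 passed the threshold of the study, at 1.82 (SE 0.66) from at most 0.836 CPM, and its unadjusted edgeR p was between 0.0504 and 0.166 with any 1 mouse left out, so that the call ended each time, as it did by DESeq2 (unadjusted p = 0.108). The 11 kidney and intestine epithelial genes gave 148 to 233 and 190 to 262 CPM, and 4 of them were tested, with none of those past it. The part of these cells in the Cyp2c values was not tested.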

How the data were processed

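The authors deposited whole-number read counts per gene, without normalization, in one table of 46603 Ensembl genes with a column for each of 4 mice. The submitters' processing notes name GRCm38 and RSEM, with no version or role, and the handling of reads that match several genes is not given in the sources used here. Symbols were matched for 46005 genes. Coordinates and transcripts are those of GENCODE M21 (GRCm38), and promoters those of RefSeq (GRCm38.p6). Counts were scaled with TMM factors and tested with the quasi-likelihood test of edgeR 4.0.16 (R 4.3.3) on the 13001 genes kept by its filter (minimum 10 counts, total of at least 15), with Benjamini-Hochberg adjustment over all of them. Values per mouse are CPM. Near copies were also summed before the fit.

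On counts simulated for this comparison over 13001 genes, with 200 changed in each of 5 runs, 61.2% of 2-fold and 88.6% of 4-fold changes had an adjusted p-value under 0.05, and 10.8% of such calls were false. The simulated counts were drawn for each gene separately, without differences shared by many genes of a mouse. These shares therefore may not hold for the real libraries, where 3 of 13001 genes had such a value. The alternatives were DESeq2 size factors, upper quartile factors, library size only, no filter, 10 counts in every library, the DESeq2 1.42.0 Wald test, edgeR's exact and robust tests, limma-voom (limma 3.58.1), and leaving out each mouse. All members were named, and of the other lists the genes past the study's threshold (at most 5 a list) with a few fixed regulators and enzymes. Krt19, Muc1, Acot8, Amacr, Hsd3b7 and the Cyp2c genes outside the members were named after their values were seen. The members and lists were chosen with earlier results of these data known. Identities, motifs and sums were computed with python 3.11.15, biopython, pandas 2.3.3 and scipy.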

Additional observations from a re-analysis of the deposited data

How the results depend on the processing

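No paired analysis was possible because the mice of the groups share no number. Under all alternatives 0 members had an adjusted p-value under 0.05 and 0 passed the study's threshold upward. The count of members past it downward, 1 in the report, was 0 with 10 counts in every library, 0 with the DESeq2 Wald test and 0 with near copies summed, and ran from 0 to 2 with a mouse left out. All genes past it, 276 in the report, came to 526 without the filter, and to between 262 and 506 with a mouse left out. The members' median log2 fold change ran from -0.44 to 0.16 with a mouse left out, and the summed Cyp2c difference from -0.38 to 0.21. Log2 fold changes whose sign turned when 1 mouse was left out ran from -0.51 to 0.37 for Cyp2c29, -0.66 to 0.17 for Cyp2c37, -0.21 to 0.20 for Cyp2c38, -0.0133 to 0.48 for Cyp2c44, -0.62 to 0.16 for Cyp2c50, -1.11 to 0.18 for Cyp2c54 and -1.45 to 0.58 for Cyp2c39. For other genes they ran from -0.64 to 0.31 for Cyp8b1, -0.28 to 0.25 for Por, -0.29 to 0.15 for Nr1i3, -0.34 to 0.29 for Hnf4a, -0.30 to 0.0755 for Nr1h4, -0.35 to 0.46 for Nr0b2, -0.0766 to 0.0318 for Stat5b and -2.53 to 0.29 for Bcl6. Cyp2c29, at 0.00554, was -0.0016 with upper quartile factors, -0.0198 with library size only, -0.0069 without the filter, -0.0047 with 10 counts in every library and -0.0715 with limma-voom, and Por was -0.0038 with limma-voom. Cyp2c40, Cyp2c67, Cyp2c68 and Cyp2c70 kept their sign under every alternative in which they were tested. With near copies summed, Cyp2c40 was not tested on its own. With 1 mouse left out, the lone mouse is assumed to vary like the other group. The cause of these changes was not tested. With 2 mice a group and as few as 5 reads for Cyp2c40 in a library, small differences could not be resolved.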
